A study of Mus musculus with 8 samples.

Results

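The data describe 10 genes of the transforming growth factor beta (TGF-beta) superfamily in mouse mammary cells: the ligands Tgfb1, Tgfb2 and Tgfb3, the TGF-beta receptors Tgfbr1 and Tgfbr2, the bone morphogenetic proteins Bmp3, Bmp4 and Bmp7, and the activin and inhibin subunits Inhba and Inhbb. The set was taken by name, 10 of 27998 genes in the count tables, with earlier results of these data known. Of the members, 8 encode ligands or ligand subunits and 2 encode receptors. Shares over all genes are given beside the counts of members as a reference and not as a test of the set. Ligands of this family are secreted as dimers that bring together a type II and a type I receptor kinase, which then phosphorylates Smad transcription factors. TGF-beta ligands are secreted in a latent form and signal through Tgfbr2 and Tgfbr1, BMPs and activins use related receptors, and secreted antagonists such as follistatin bind the ligands outside the cell. In the mammary gland, TGF-beta is known for restraining ductal growth and for its part in involution, when milk-producing alveoli are removed after weaning.

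The counts came from C57BL/6N mice at 4 stages with 2 mice at each, and every library is 1 mouse. The stages are nulliparous (NP, 8 weeks old), gestation (G, day 14.5), lactation (L, day 6) and post-involution (PI, 11 days of natural involution). No age is given for the G, L and PI mice. Cells carrying the epithelial surface protein EpCAM were sorted, with CD31, CD45 and Ter119 used to exclude endothelial, immune and red blood cells, and their 3' transcript ends were counted with unique molecular identifiers (UMIs) on the 10x Chromium platform. Both NP mice and PI mouse 2 were in oestrus and PI mouse 1 was in dioestrus, so cycle phase is shared by 3 of the 4 mice in each comparison of PI with NP and was not tested. The labels give no allele or agent that separates the groups, which share strain, sort and library chemistry.

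Of 25806 barcodes, 25009 cells passed the authors' quality flag, and the libraries held 13306760 to 34552742 UMIs in these cells. Of the barcode entries, 791 were found in more than 1 library and did not pass. The authors' clusters C1 to C15 (23183 cells) are epithelial by their naming, C16 to C19 (1516 cells) are other cell types, and C20 (310 cells), which they treated as doublets, was left out. For C15 the paper could not exclude that the cells are non-epithelial, and C15 was therefore left out of the basal sums below. UMIs were summed per library and cluster wherever a library had at least 20 cells, which gave 51 sums over 19 clusters, and levels are a gene's UMIs per 1000000 UMIs of the sum (CPM). The summed level of 6 basal keratin and contractile markers was 7475 to 43673 CPM in C12 to C14 and 11.1 to 6129 CPM in C1 to C11, where the 4 luminal keratin and adhesion markers were at 2650 to 24927 CPM. C17 carried immune markers (36609 to 53534 CPM), C18 fibroblast markers (14914 to 55740 CPM) and C19 endothelial markers (3254 to 4228 CPM), although markers of immune and endothelial cells had been used for exclusion in the sort.

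All members were found in the GRCm38 annotation: Tgfb1 at chr7:25687002-25705077, Tgfb2 at chr1:186622792-186705989, Tgfb3 at chr12:86056745-86079041, Tgfbr1 at chr4:47353222-47414931, Tgfbr2 at chr9:116084293-116175360, Bmp3 at chr5:98854415-98884396, Bmp4 at chr14:46383520-46390669, Bmp7 at chr2:172868012-172940321, Inhba at chr13:16011851-16031621 and Inhbb at chr1:119415465-119422248. None overlaps another gene on its own strand, and Tgfb2, Tgfb3, Bmp4 and Inhba overlap annotated genes on the opposite strand.

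Across clusters, the members fell into distinct places in the tissue. The clusters were drawn by the authors on the same counts, so the levels below describe the clusters and carry no test, and they are compared within a gene only, since 3' counts of different genes are not on a scale per length. Each mean is given with its SD over the 2 mice of a stage.

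Tgfb1 was highest outside the epithelium. Its level was 172 ± 27 CPM in C17 at lactation and 145 ± 17 CPM in C19 at lactation, and 1 gestation library with enough cells of C16, a cluster with immune markers at 3002 CPM, gave 313 CPM. Of the clusters C1 to C15, C15 of lactation had 63.5 ± 33 CPM of Tgfb1, which stood at 59.3 ± 16 CPM in the hormone-sensing differentiated cells of PI (C3) and 50.3 ± 0.28 CPM in those of NP (C4), against 8.77 ± 3.4 CPM in the NP luminal progenitors (C6) and 5.93 ± 0.33 CPM in the differentiated alveolar cells of gestation (C8). The 2 mice of C3 (48.1 and 70.5 CPM) span the C4 values, so these neighbours did not differ beyond their spread.

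Tgfb2 had nearly the opposite distribution among luminal cells. It was highest in C8 (117 ± 5.5 CPM), in the alveolar progenitors of gestation (C10, 114 ± 8.9 CPM) and in the luminal progenitors of PI (C7, 112 ± 6.2 CPM) and NP (C6, 102 ± 1.8 CPM), and the first 3 overlapped between mice. Basal and myoepithelial cells were intermediate, at 89.0 ± 22 CPM in the lactation myoepithelial cluster (C14) and 44.8 ± 7.7 CPM in the NP basal cluster (C12). In hormone-sensing differentiated cells Tgfb2 was nearly absent, with 1.95 ± 0.71 CPM in C4 of NP and 1.05 ± 0.21 CPM in C3, from 52 and 18 UMIs in all.

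Tgfb3 was highest in the Procr-expressing lactation cluster C15 (107 ± 25 CPM), which may be non-epithelial. C15 carried the basal keratin and contractile markers at 11533 and 13500 CPM and pericyte markers at 6022 and 5299 CPM. The alveolar and luminal progenitors of gestation, lactation and PI followed, with 82.7 ± 11 CPM in C11, 73.7 ± 2.8 CPM in C10 and 66.5 ± 19 CPM in C7, and their ranges over mice overlapped. The NP luminal progenitors (C6) stood apart from these at 17.3 ± 3.6 CPM.

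Both receptors were measured in every epithelial cluster. Tgfbr1, the type I receptor, was highest in C17 (155 ± 1.5 CPM at lactation). It lay between 55.3 and 62.3 CPM in the basal clusters C12, C13 and C14. The luminal progenitors of PI (C7) were within that range at 59.4 ± 9.7 CPM, and those of NP (C6) were at 42.7 ± 2.8 CPM. C4 of NP was lower, at 14.7 ± 0.98 CPM. Tgfbr2, the type II receptor, peaked in C18, where the lactation libraries gave 421 and 286 CPM, and C19 followed with 109 to 165 CPM. In the epithelium Tgfbr2 ranged only from 19.7 ± 4.9 CPM in C5, the hormone-sensing cells of gestation, to 80.2 ± 13 CPM in C2, the hormone-sensing progenitors of NP.

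The BMPs each had their high levels in a few clusters. Bmp3, a BMP that antagonises other BMPs, was almost confined to hormone-sensing clusters: 97.8 ± 45 CPM in C5 (130 CPM from 16 UMIs and 65.8 CPM from 17 UMIs), 76.3 ± 9.5 CPM in C3, 38.1 ± 15 CPM in C1 and 9.25 ± 1.9 CPM in C4 of NP. The exceptions above 5 CPM were a single PI library of C12 with 6 UMIs (21.1 CPM) and a lactation library of C18 (12.6 CPM). Bmp7 was highest in basal clusters, at 85.1 ± 2.0 CPM in C13, 47.2 ± 22 CPM in the PI cells of C12, 42.8 ± 2.3 CPM in the NP cells of C12 and 29.7 ± 2.6 CPM in C14, and the luminal clusters C1 to C11 lay between 0 and 8.23 CPM. The fibroblast-marker cluster C18 was near the level of C14, at 26.0 ± 12 CPM in lactation, 24.5 ± 22 CPM in gestation (8 UMIs) and 17.1 ± 6.5 CPM in NP (7 UMIs), with 43.5 CPM from 6 UMIs in 1 PI library.

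Bmp4 was highest in the endothelial-marker cluster C19 and, at lactation only, in the fibroblast-marker cluster C18. It reached 50.7 and 101 CPM in C19 and 22.9 and 39.0 CPM in C18, both at lactation, and 10.3 to 15.6 CPM in C19 of gestation. Elsewhere C18 had means of 0 CPM in gestation and 1.56 CPM in NP (1 UMI), with 0 CPM in its PI library. The immune-marker cluster C17 had means of 0 CPM in gestation and 1.94 CPM in lactation, and the gestation library of C16 had 0 CPM. No epithelial sum exceeded 7.74 CPM, a value that rests on 2 UMIs, and Bmp4 did not pass the filter on low counts in any comparison of epithelial cells.

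The activin subunits had their highest levels in different clusters. Inhba, which encodes the beta A subunit, was highest in C15 (46.9 ± 9.2 CPM) and then in the basal clusters C13 (18.6 ± 0.12 CPM) and C12 of NP (12.8 ± 7.1 CPM). NP luminal progenitors (C6) gave 10.3 ± 3.0 CPM, above the lactation myoepithelial cells of C14 (2.10 ± 0.093 CPM). Inhbb, which encodes the beta B subunit, had its 8 highest means over 2 mice in luminal clusters and in the gestation cells of C19 (62.8 ± 0.45 CPM), from 87.9 ± 19 CPM in the PI cells of C4 to 59.8 ± 12 CPM in C6 of NP. The 22 cells of C6 in 1 PI library gave a higher value, 125 CPM from 19 UMIs. Inhbb stood at 1.55 ± 0.40 CPM in C13, 1.86 ± 0.35 CPM in C14 and 0 CPM in C15. Basal C12, at 13.5 ± 2.2 CPM in NP and 14.1 ± 20 CPM in PI, was near luminal C8 (13.4 ± 5.4 CPM) and C5 (10.0 ± 8.7 CPM). The levels of all 10 members by cluster and mouse are plotted next.

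**Figure D1:**
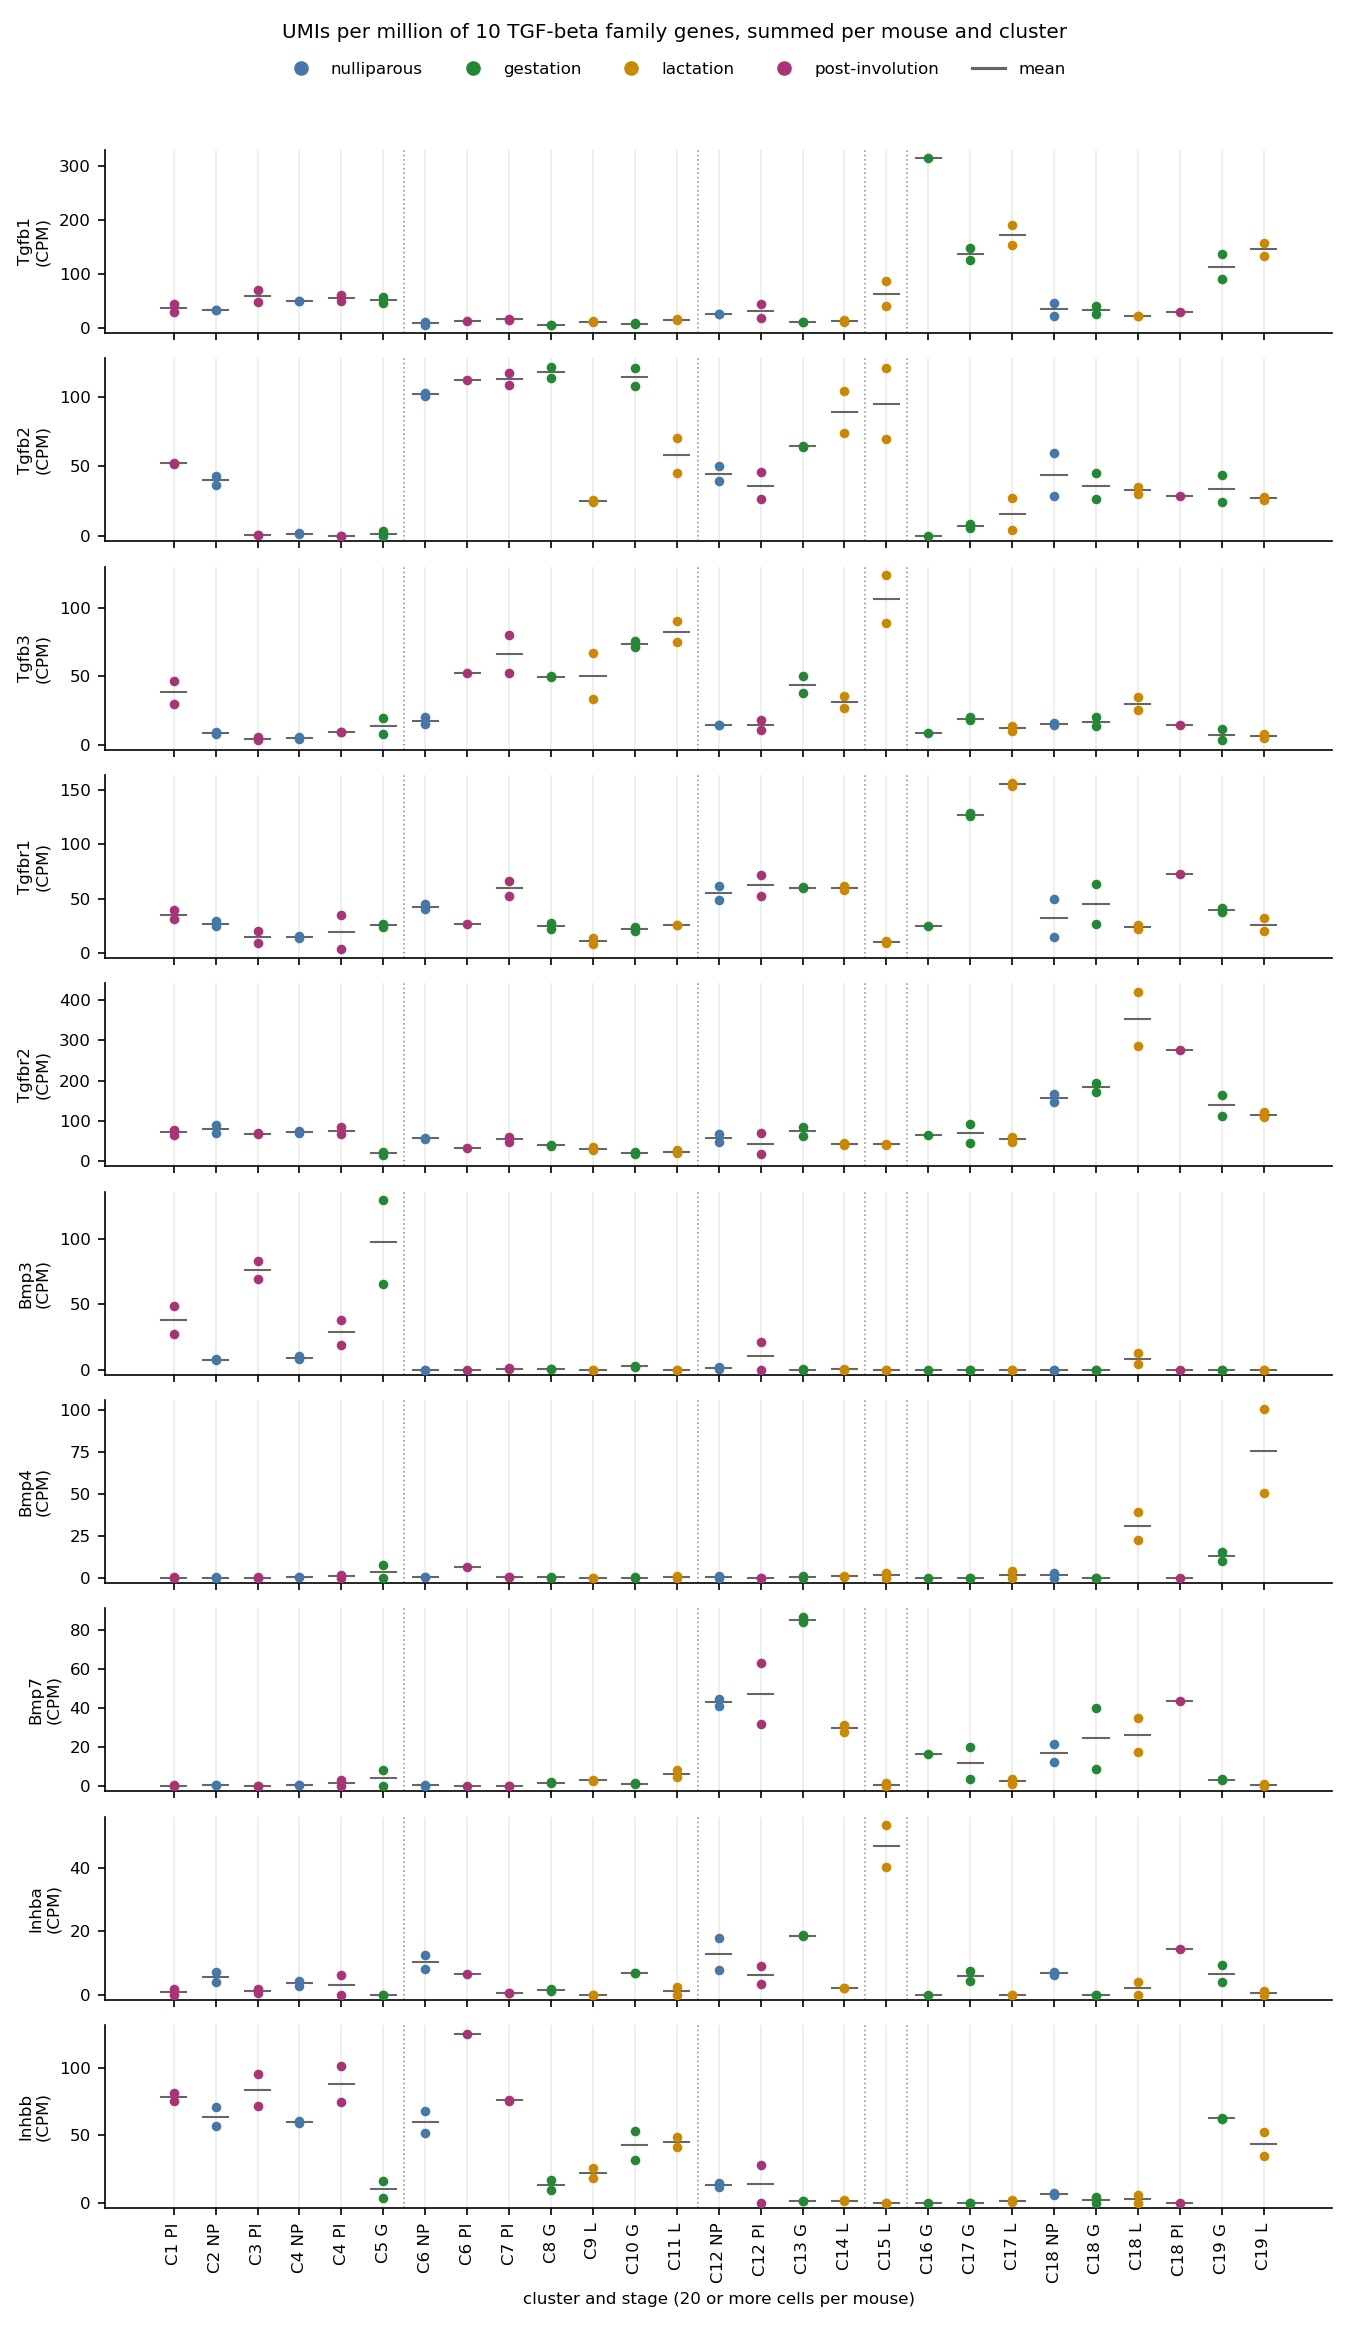
Level of each member (CPM, vertical axis) in each cluster and stage (horizontal axis), with a point per mouse and a line at the mean of the mice. Bmp3 points rise in the hormone-sensing clusters C1, C3 and C5, Bmp7 points in the basal clusters C12 to C14, and Tgfb2 points lie near 0 in C3 and C4.

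The promoter windows of the 2 activin subunits are shown because Inhba was higher in the basal sums and Inhbb in the luminal sums, as given below. Each is the 250 bases before the annotated start, written 5′ to 3′ on the gene's strand from RefSeq's GRCm38.p6 table, which held windows for 7 of the 10 members. Capitals mark matches, on either strand, to a TATA box, spelled TATAAA. The other motifs searched on both strands were the E-box, spelled CACGTG, the core of the cAMP response element, spelled CGTCA, and the Smad-binding element, spelled CAGAC, and matches to the E-box and the cAMP core can overlap.
Inhba (chr13:16011601-16011850, plus strand): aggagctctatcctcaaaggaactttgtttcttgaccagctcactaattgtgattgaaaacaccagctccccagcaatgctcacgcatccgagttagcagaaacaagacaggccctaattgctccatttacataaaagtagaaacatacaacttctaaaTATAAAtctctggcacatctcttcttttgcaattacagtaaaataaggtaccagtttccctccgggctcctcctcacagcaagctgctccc
Inhbb (chr1:119422249-119422498, minus strand): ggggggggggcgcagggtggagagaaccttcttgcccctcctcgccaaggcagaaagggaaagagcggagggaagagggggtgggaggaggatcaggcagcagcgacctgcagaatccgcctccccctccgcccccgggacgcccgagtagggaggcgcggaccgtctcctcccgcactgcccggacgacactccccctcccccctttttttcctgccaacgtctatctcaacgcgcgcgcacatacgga
The Inhba window held 1 match, the TATA box, 91 bases before the start, and the Inhbb window held none of the 4 motifs. Among all 32851 windows of this length, 12.4% held the TATA box, 6.02% the E-box, 17.8% the core of the cAMP response element and 42.2% the Smad-binding element, and a match is a run of letters and not a measured site.

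The comparison of luminal cells (C1 to C11 summed) with basal cells (C12 to C14 summed) within each of the 8 mice puts a size on these places. Inhbb and Bmp3 were higher in luminal cells and Bmp7, Inhba and Tgfbr1 higher in basal cells, 5 of the 9 members tested, where 47.1% of the 13891 genes tested differed (24.6% higher and 22.5% lower in luminal cells) by edgeR's quasi-likelihood test at an adjusted p under 0.05. On library totals alone, without the TMM scaling of edgeR, the genes split into 2584 higher and 3912 lower, against 3414 and 3129. Bmp7 ranged from 27.9 to 86.4 CPM (median 42.9) in basal sums and from 0.15 to 6.10 CPM (median 1.26) in luminal sums, with no overlap over 8 mice (log2 difference, luminal minus basal, −5.17 ± 0.57 SE, adjusted p = 2.98e-05). Inhbb lay between 10.7 and 82.2 CPM (median 49.7) in luminal sums and between 0 and 25.6 CPM (median 2.06) in basal sums, and was higher in luminal cells in 8 of 8 mice (3.24 ± 0.38, adjusted p = 4.63e-05).

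The other members that differed had smaller gaps or fewer UMIs. Bmp3 was at 0 to 53.3 CPM (median 5.20) in luminal sums and 0 to 19.2 CPM (median 0.29) in basal sums, and was higher in luminal cells in 7 of 8 mice (2.73 ± 0.43, adjusted p = 0.000327). Inhba was lower in luminal cells in 8 of 8 mice, at 0 to 5.82 CPM (median 1.54) against 2.03 to 18.6 CPM (median 8.24) (−2.13 ± 0.47, adjusted p = 0.00305). Tgfbr1 was lower in luminal cells in 8 of 8 mice, at 19.3 to 49.3 CPM (median 21.7) against 48.3 to 69.9 CPM (median 60.2), so its groups overlapped only through the luminal sum of PI mouse 1 (−1.10 ± 0.17, adjusted p = 0.000317).

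Tgfb1, Tgfb2, Tgfb3 and Tgfbr2 did not pass this test, with log2 differences from −0.02 to 0.54. For Tgfb2 the sign changed between stages: luminal sums were the higher at gestation (113 and 120 CPM against 65.1 and 64.0 CPM) and the lower at lactation (37.4 and 49.99 CPM against 73.8 and 104 CPM). Because the clusters were drawn on the same counts, the comparison measures size and gives no independent test, and without the library term Bmp3's difference was 3.97 (adjusted p = 0.015).

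**Figure D2:**
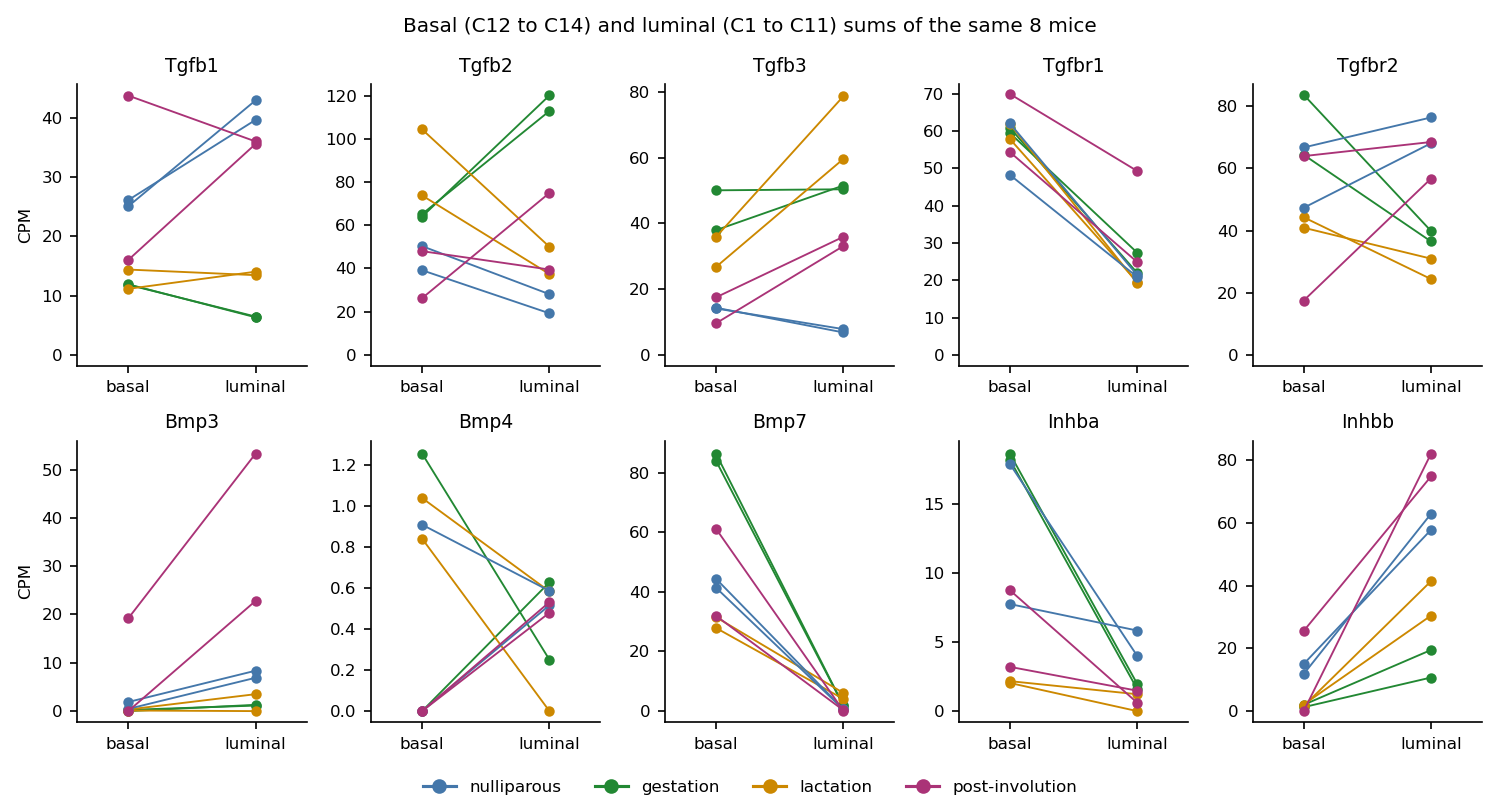
Level of each member (CPM, vertical axis) in the luminal sum and the basal sum of each mouse, with a line joining the 2 sums of a mouse and colours for the stage. Bmp7, Inhba and Tgfbr1 are lower in the luminal sum in 8 of 8 mice, and Inhbb is higher in the luminal sum in 8 of 8.

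Of the rest of the pathway, 9 of 10 tested antagonists (Bambi, which is not secreted, among them), 5 of 10 other receptors and 9 of 13 TGF-beta target genes were higher in basal cells and 0 in luminal cells, with median log2 differences of −3.46, −0.82 and −1.86 against 0.07 over all genes, of which 22.5% were higher in basal cells. Of 11 tested genes of the latent complex 5 were higher in basal and 2 in luminal cells, among the latter Ltbp1 (33.1 ± 9.3 CPM luminal, 16.8 ± 8.3 CPM basal, 0.94 ± 0.27, adjusted p = 0.0139). Some genes are in more than 1 list, as the TGF-beta targets Smad7, Skil and Ltbp2 are, and count in each. The TGF-beta target list also holds the contractile and matrix genes Tagln, Col1a1 and Fn1, and pathway activity was not tested. Of 11 Smads and regulators 5 were higher in basal and 1 in luminal cells. The latter was Smurf1, a ubiquitin ligase for Smads (25.2 ± 14 and 17.5 ± 7.2 CPM, 0.54 ± 0.20, adjusted p = 0.0473). Its call ended on library totals (0.34, adjusted p = 0.164), without the library term (adjusted p = 0.104) and without any of 6 mice. Among the genes higher in basal cells were the antagonist pseudoreceptor Bambi (12.05 ± 6.4 CPM luminal, 81.2 ± 48 CPM basal, n = 8) and the co-receptor Tgfbr3 (13.6 ± 11 and 177 ± 90 CPM), with no overlap between compartments. The BMP target Id4 was at 3.85 ± 2.2 CPM in luminal and 260 ± 132 CPM in basal sums (−6.00 ± 0.48). Msx2, another BMP target, was higher in luminal sums (31.5 ± 34 against 3.60 ± 5.4 CPM, 2.49 ± 0.49, and 3.82 without the library term).

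The comparison of PI with NP asks how the same lineages differ between a gland that has completed a pregnancy and lactation and a gland that has not. Age is given for the NP mice only, and a difference in age cannot be told apart from parity in this comparison. In the data the clusters themselves are stage-specific, so in effect C7 was compared with C6 for the luminal progenitors, C1 with C2 for the hormone-sensing progenitors and C3 with C4 for the hormone-sensing differentiated cells. With 2 mice against 2, an exact permutation of single values cannot give a two-sided p under 0.333, so adjusted p-values below come from edgeR's quasi-likelihood fit over all genes with Benjamini-Hochberg adjustment, which borrows the spread from other genes.

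In luminal (secretory) progenitors, Tgfb3 was higher and Inhba lower in PI, with Tgfb1 and Tgfbr1 higher to a smaller extent. In all, 4 of 7 members tested differed (3 higher, 1 lower), where 25.7% of 10177 genes did (14.2% higher, 11.4% lower, or 1450 and 1162 genes, which became 1143 and 1613 on library totals alone). Tgfb3 stood at 14.7 and 19.8 CPM in the NP mice and at 52.8 and 79.7 CPM in the PI mice. Both PI values exceed both NP values, and the log2 fold change was 2.06 ± 0.23 (SE, adjusted p = 2.54e-05).

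The share of cells with a Tgfb3 UMI followed the level. It was 11.6% (95% exact interval 8.49 to 15.3%) and 13.9% (10.3 to 18.2%) in C6 of NP and 32.9% (29.7 to 36.2%) and 38.2% (35.3 to 41.1%) in C7 of PI, although median depth was higher in C6 (7768 and 6597 UMIs per cell) than in C7 (6484 and 5579). After thinning each cell to 1000 UMIs the shares were 2.42% and 2.22% in NP and 5.70% and 8.45% in PI. In the PI cells of C3, which nearly lack the gene, 2.91% and 3.26% of cells had a Tgfb3 UMI at 7179 and 5638 median UMIs, and the intervals cover counting error only.

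Inhba went the other way. It was at 8.11 and 12.4 CPM in NP (27 and 30 UMIs) and at 0.53 and 0.62 CPM in PI (4 and 5 UMIs), with no overlap (−3.94 ± 0.50, adjusted p = 7.14e-05). The PI values rest on so few UMIs that the size of the fold is imprecise. Tgfb3 and Inhba kept their calls in all 12 alternatives run at the same threshold (other scalings, filters and tools, other choices of cells, and each mouse left out).

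Tgfb1 and Tgfbr1 were higher by less, and their calls depended on the fit. Tgfb1 was at 7.21 and 11.2 CPM in NP and 17.4 and 14.7 CPM in PI (0.94 ± 0.25, adjusted p = 0.014), but the adjusted p was 0.133 in DESeq2, 0.213 without NP mouse 1 (log2 fold change 0.60) and 0.095 without PI mouse 1, over a range of 0.00303 to 0.213. Tgfbr1 was at 44.8 and 41.3 CPM in NP and 65.5 and 52.7 CPM in PI (0.55 ± 0.16, adjusted p = 0.0184), and its adjusted p was 0.147 in DESeq2, 0.094 and 0.111 without NP mouse 1 or 2 and 0.156 without PI mouse 1, over 0.0086 to 0.156.

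The other 3 members tested in luminal progenitors did not pass. Tgfb2 was at 103 and 101 CPM in NP and 117 and 109 CPM in PI (0.25, adjusted p = 0.266), Tgfbr2 differed by 0.04 (adjusted p = 0.901), and Inhbb was at 52.0 and 67.7 CPM in NP and 77.1 and 76.4 CPM in PI (0.47 ± 0.18, adjusted p = 0.0738, and 0.0221 with no filter on low counts). Bmp3, Bmp4 and Bmp7 did not pass the filter, and no Bmp3 UMI was found in 372 and 316 NP cells of C6.

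Of 6 BMP target genes tested, 3 were higher in PI progenitors and 0 lower (median log2 fold change 0.92 against 0.01 over all genes): Hey1, a Notch and BMP target (51.8 ± 3.4 against 9.22 ± 1.6 CPM, 2.61 ± 0.28), Id1 (55.0 ± 20 against 11.9 ± 5.7 CPM, 2.26 ± 0.35) and Id2 (196 ± 26 against 79.0 ± 3.9 CPM, 1.42 ± 0.22), Id1 and Id2 encoding inhibitors of DNA binding. Of 11 TGF-beta target genes 3 were higher and 3 lower (median 0.23). Over all genes tested in these cells 14.2% were higher and 11.4% lower.

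Of 9 tested genes that hold or activate latent TGF-beta, 3 were lower and 0 higher in the same cells (median −0.18): the activator Thbs1 (thrombospondin, 235 ± 15 against 539 ± 39 CPM, −1.10 ± 0.16) and the integrin subunits Itgb8 (35.8 ± 3.7 against 73.8 ± 2.2 CPM, −0.95 ± 0.15) and Itgb6 (22.8 ± 3.8 against 46.2 ± 8.1 CPM, −0.92 ± 0.21). Itgb6 had an adjusted p of 0.0559 in DESeq2, 0.1 without NP mouse 1 and 0.0602 without PI mouse 1, against 0.0059. Milk protein transcripts were higher in PI for 7 of 8 markers (summed 768 and 1442 CPM in NP, 13392 and 14579 CPM in PI) and fibroblast markers lower for 4 of 6 (11.7 and 197 CPM in NP, 1.19 and 25.9 CPM in PI). Of the hormone-sensing markers 1 of 5 was higher and 1 lower, with the sum at 4261 and 4155 CPM in NP and 1391 and 1149 CPM in PI. Both immune markers tested were higher (sum of the list 10.2 and 13.6 CPM in NP, 33.8 and 33.5 CPM in PI). The part of these transcripts in the results was not tested.

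In hormone-sensing progenitors, Tgfb3 and Bmp3 were both higher in PI, 2 of 8 members tested where 16.6% of 10692 genes differed (9.58% higher, 7.05% lower). Bmp3 was at 8.30 and 7.22 CPM in NP and at 27.2 and 48.6 CPM in PI (2.34 ± 0.28, adjusted p = 0.000148). Tgfb3 was at 8.11 and 9.25 CPM in NP and at 30.2 and 46.6 CPM in PI (2.21 ± 0.25, adjusted p = 9.65e-05). For both genes every PI value exceeded every NP value, and both kept their calls in all 11 alternatives.

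Inhba was again low in PI, at 3.86 and 7.22 CPM in NP and 0 and 1.78 CPM in PI, but missed the threshold (−2.07 ± 0.66, adjusted p = 0.0504). It passed under 5 of 11 alternatives, with adjusted p-values from 0.00136 to 0.349 over all of them. Without PI mouse 2, which leaves PI at 0 UMIs, the fitted value was −7.25 (adjusted p = 0.00231), and its size then depends on the prior count. Tgfb1 (33.4 and 33.5 CPM in NP, 45.1 and 28.7 CPM in PI) overlapped between stages, and Tgfb2 (43.3 and 37.0 CPM in NP, 51.3 and 51.9 CPM in PI) did not pass (adjusted p = 0.123).

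Of 8 BMP target genes tested in these cells, 5 were higher and 0 lower (median 1.29 against −0.02 over all genes, of which 9.58% were higher and 7.05% lower). Hey1 was at 27.7 ± 4.4 CPM in PI and 1.98 ± 1.6 CPM in NP (3.61 ± 0.33), Id1 at 27.9 ± 16 and 5.98 ± 0.28 CPM (2.33 ± 0.34) and Id2 at 111 ± 32 and 35.2 ± 2.4 CPM (1.67 ± 0.19). Without NP mouse 1 the value of Hey1 was 4.87 and without PI mouse 2 that of Id1 was 1.46, both still past the threshold. Milk protein transcripts were higher for 6 of 6 markers here (198 and 336 CPM in NP, 6634 and 7308 CPM in PI), and their part was not tested.

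In hormone-sensing differentiated cells the change was Bmp3 alone among 8 members tested, where 14.3% of 11994 genes differed (7.64% higher, 6.65% lower). Bmp3 was at 10.6 and 7.97 CPM in NP and at 66.8 and 80.9 CPM in PI, with no overlap (2.96 ± 0.19, adjusted p = 3.61e-06), and kept its call in all 11 alternatives. The share of cells with a Bmp3 UMI was 11.3% (9.40 to 13.5%) and 7.84% (6.39 to 9.50%) in C4 of NP and 32.0% (27.6 to 36.8%) and 31.5% (29.7 to 33.4%) in C3 of PI, while median depth was higher in C4 (10160 and 10310 UMIs) than in C3 (7179 and 5638). After thinning, the shares were 1.55% and 0.578% in NP and 7.28% and 7.84% in PI.

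As a background for these shares, luminal progenitors of the same libraries gave nearly none. In C7 of PI, 0.364% and 0.727% of cells had a Bmp3 UMI at median depths of 6484 and 5579 UMIs. In C6 of NP 0 of 372 and 0 of 316 cells had one, which allows shares of up to 0.987% and 1.16% of cells with a UMI at this depth and sets no limit on cells that express the gene. The PI cells that kept the NP cluster (C4 in PI, 40 and 88 cells) had Bmp3 at 37.9 and 19.2 CPM from 12 and 10 UMIs, above both NP values of C4 (10.6 and 7.93 CPM) and below both values of C3 (69.6 and 83.0 CPM).

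Tgfb3 did not pass in these cells, with 4.23 and 5.50 CPM in NP and 4.11 and 5.48 CPM in PI (0.01, adjusted p = 0.99). Inhba was at 2.98 and 4.40 CPM in NP and 1.10 and 1.81 CPM in PI and missed the threshold (−1.22, adjusted p = 0.0569, 0.00959 to 0.499 over the alternatives, 3 of 11 past it). Inhbb was at 59.8 and 60.3 CPM in NP and 96.2 and 72.1 CPM in PI (0.41, adjusted p = 0.107, and 0.0139 without PI mouse 2). Tgfbr1 passed without PI mouse 1 (−0.70, adjusted p = 0.0149) but not with it (−0.20, adjusted p = 0.696).

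Of 8 BMP target genes tested in hormone-sensing differentiated cells 2 were higher and 0 lower (median 0.33 against −0.02 over all genes, of which 7.64% were higher and 6.65% lower). Msx2 was among the former (140 ± 2.9 against 67.5 ± 6.9 CPM, 1.00 ± 0.15). The inhibitory Smad7 was at 75.6 ± 20 against 44.2 ± 8.3 CPM (0.68 ± 0.19, adjusted p = 0.038, but 0.239 without NP mouse 1 and 0.052 without PI mouse 1). The co-receptor Eng was lower (13.2 ± 4.5 against 25.6 ± 1.9 CPM, −1.12 ± 0.21), as was Thbs1 (8.91 ± 4.1 against 23.7 ± 13 CPM, −1.63 ± 0.35, adjusted p = 0.0104, but 0.151 in DESeq2 and 0.0666 without NP mouse 1, where the value was −0.93). In the same sums 3 of 6 basal markers were lower (127 and 52.9 CPM in NP, 17.3 and 25.8 CPM in PI), Thbs1 being at 889 ± 85 CPM in the basal sums of NP. Milk protein markers were higher for 4 of 4 tested (14.5 and 11.9 CPM in NP, 73.4 and 83.4 CPM in PI), and the part of these transcripts was not tested.

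In basal cells, 0 of 8 members tested differed between PI and NP, where 4.47% of 11870 genes did (1.92% higher, 2.54% lower). The split of 228 higher and 302 lower genes became 486 and 218 in DESeq2, 295 and 188 with its size factors in edgeR, 403 and 229 in a fit of NP and PI alone and 343 and 193 on library totals. Of the members, 0 had an unadjusted p under 0.05 (smallest 0.0876). DESeq2 and the other alternatives also gave 0. The PI sums held only 28 and 59 cells, so values such as 8.74 and 3.20 CPM for Inhba come from 1 UMI each, and a change as large as those above may not have been detectable for the low members. Bmp7 was at 44.4 and 41.4 CPM in NP and 61.2 and 32.0 CPM in PI, so PI spanned NP.

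**Figure D3:**
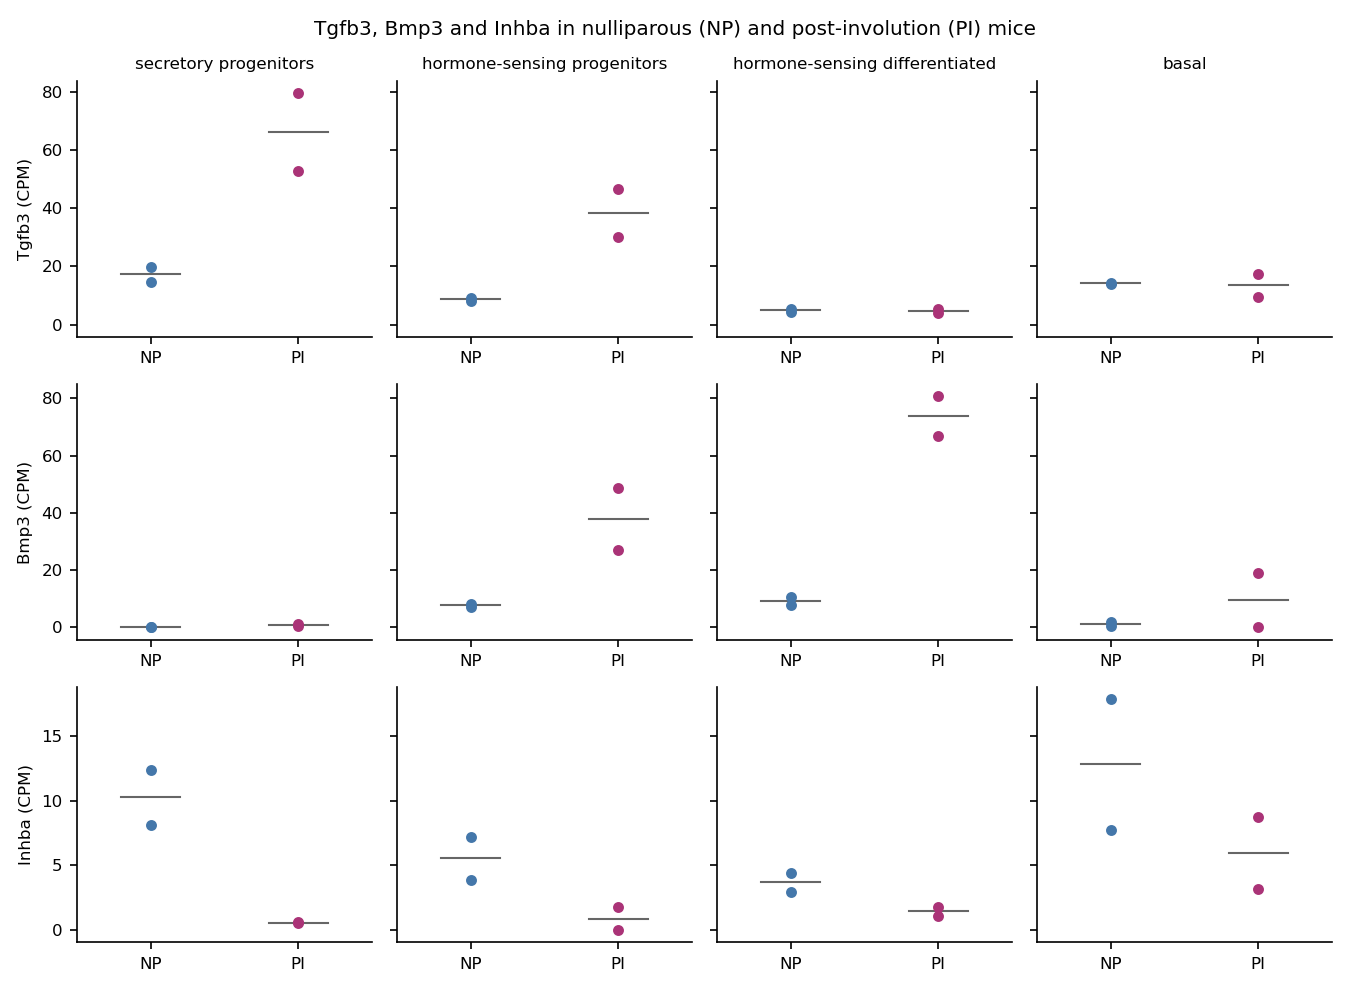
Level of members (CPM, vertical axis) in the NP and PI mice for luminal progenitors, hormone-sensing progenitors, hormone-sensing differentiated cells and basal cells, with a point per mouse and a bar at the mean. Tgfb3 is higher in PI in both progenitor panels (52.8 and 79.7 against 14.7 and 19.8 CPM in luminal progenitors), and Bmp3 in both hormone-sensing panels.

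Whether these changes differed between cell types was tested directly, in a fit over the NP and PI sums of all 4 cell types with the mouse as a term. The Tgfb3 change was 2.15 log2 units larger in luminal progenitors than in hormone-sensing differentiated cells (adjusted p = 2.54e-06) and 2.72 larger than in basal cells (adjusted p = 0.00139, but 0.208 and a value of 1.87 without PI mouse 2). Between luminal progenitors and hormone-sensing differentiated cells 5 of 9 members differed in their change, where 17.6% of 12082 genes did (10.2% upward, 7.37% downward, or 1232 and 890 genes, against 785 and 1512 on library totals). Between luminal progenitors and basal cells 1 of 9 did, where 7.99% of genes did (6.08% upward, 1.90% downward). That split of 735 and 230 genes became 318 and 418 in DESeq2, 321 and 337 with its size factors in edgeR and 225 and 427 on library totals. Between hormone-sensing differentiated and basal cells 0 of 9 did in edgeR and DESeq2 (6.46% of genes, 4.41% upward and 2.04% downward). Of these 9, 0 had an unadjusted p under 0.05, and the smallest was 0.108. The split here of 533 and 247 genes became 232 and 367 in DESeq2, 249 and 317 with its size factors in edgeR and 254 and 315 on library totals. For Bmp3 no difference between changes passed in edgeR. Luminal progenitors minus hormone-sensing differentiated cells gave 2.30 (adjusted p = 0.53), with 0 Bmp3 UMIs in C6 of NP and 12 in C7. Hormone-sensing differentiated minus basal cells gave −0.09 (adjusted p = 0.971). Basal C12 was at 1.17 ± 1.0 CPM in NP and 10.6 ± 15 CPM in PI, the latter from 6 UMIs. A Bmp3 rise confined to hormone-sensing cells was thus not shown.

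The comparisons of gestation with NP and of lactation with gestation follow the secretory progenitors through alveolar development. The paper names C6 and C7 luminal progenitors but C10 and C11 alveolar progenitors. Between NP and gestation, stage and cell state therefore change together and cannot be told apart. At gestation (C10 against C6), Tgfb3 was higher and both receptors were lower, 3 of 7 members tested where 42.6% of genes differed (21.8% higher, 20.8% lower). Tgfb3 was at 75.0 and 72.2 CPM in gestation, against 14.7 and 19.8 CPM in NP (2.09 ± 0.25, adjusted p = 2.27e-05). The gestation values lay within the range of the PI values, and both comparisons share the NP mice.

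The receptors fell in gestation. Tgfbr2 was at 58.6 and 55.8 CPM in NP and at 18.9 and 22.8 CPM in gestation (−1.46 ± 0.22, adjusted p = 0.000142). Tgfbr1 was at 44.8 and 41.3 CPM in NP and at 19.7 and 23.5 CPM in gestation (−1.01 ± 0.21, adjusted p = 0.00175). Neither overlapped between stages, and these 3 calls held in all 12 alternatives. In the gestation sums 3 of 4 luminal markers were lower (7663 and 9206 CPM against 23691 and 19733 CPM in NP). So were 2 of 5 hormone-sensing markers (627 and 953 CPM against 4261 and 4155 CPM). Higher were 3 of 6 basal, 4 of 8 milk protein, 2 of 2 tested immune and 4 of 8 dissociation-stress genes. The part of these transcripts in the calls was not tested.

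Tgfb2 (108 and 122 CPM in gestation), Inhba (7.58 and 6.79 CPM) and Tgfb1 (7.58 and 8.64 CPM) did not pass against NP. Inhbb (32.6 and 52.5 CPM) missed the threshold (−0.48, adjusted p = 0.0946). It passed without gestation mouse 2 (−0.91, adjusted p = 0.024) and with no filter on low counts (−0.54, adjusted p = 0.0319). Alongside the receptors, 4 of 10 Smads and regulators were lower and 0 higher (median −0.37 against −0.01 over all genes, of which 20.8% were lower and 21.8% higher), among them Smad3, which carries TGF-beta and activin signals (24.6 ± 3.7 against 82.1 ± 1.8 CPM, −1.75 ± 0.24). The integrin subunits that activate latent TGF-beta were lower too: Itgav at 61.8 ± 6.0 against 208 ± 22 CPM (−1.76 ± 0.18) and Itgb6 at 4.98 ± 1.7 against 46.2 ± 8.1 CPM (−3.20 ± 0.36). The BMP antagonist Sostdc1 was higher, at 44.1 ± 6.6 against 4.24 ± 2.2 CPM (3.43 ± 0.34), as was Bambi (41.5 ± 0.22 against 12.2 ± 2.7 CPM, 1.72 ± 0.23).

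From gestation to lactation, 2 of 7 members tested differed in alveolar progenitors (C11 against C10), where 27.5% of genes did (15.4% higher, 12.1% lower, or 1568 and 1229 genes, against 1067 and 2315 on library totals). Tgfb2 was at 108 and 122 CPM in gestation and 43.4 and 72.8 CPM in lactation (−0.73 ± 0.20, adjusted p = 0.016), but its adjusted p was 0.101 without gestation mouse 2 and 0.214 without lactation mouse 1, where the value was −0.41, over 0.000652 to 0.214. Tgfb1 was at 7.58 and 8.64 CPM in gestation (10 and 14 UMIs) and 15.1 and 15.9 CPM in lactation (1.20 ± 0.38, adjusted p = 0.0317), and missed the threshold in 6 of 12 alternatives, each left-out mouse among them (0.0301 to 0.117). Inhba, with 7.58 and 6.79 CPM in gestation and 0 and 2.28 CPM in lactation, was just over the threshold (adjusted p = 0.0524) and passed in 3 of 11 alternatives (0.0155 to 0.342). Without lactation mouse 2, which leaves lactation at 0 UMIs, the fitted value went from −2.52 to −7.60 (adjusted p = 0.0272).

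Tgfb3 was at 73.6 and 89.9 CPM in lactation, which did not pass against gestation (0.42, adjusted p = 0.2). In the lactation sums all 6 basal markers were higher (summed 5924 and 4333 CPM against 157 and 228 CPM), as were 3 of 5 hormone-sensing markers, 8 of 8 milk protein and 8 of 8 dissociation-stress genes, and their part in these values was not tested. Among the pathway genes named by rule, the contractile TGF-beta target Tagln (1116 ± 148 against 51.6 ± 11 CPM) and Hey1 (95.9 ± 42 against 13.2 ± 0.50 CPM) were higher, and the latent-complex proteins Ltbp1 (53.1 ± 8.6 against 177 ± 24 CPM) and Ltbp2 (5.50 ± 0.26 against 27.9 ± 5.1 CPM) lower.

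In differentiated alveolar cells, C9 of lactation was compared with C8 of gestation. Milk protein markers took 416266 and 443712 CPM of the lactation sums against 57393 and 96653 CPM in gestation, and the TMM scaling of edgeR moved all log2 fold changes up by 0.90. Of 8 members tested 4 differed (3 higher, 1 lower), where 18.7% of 11860 genes did (9.54% higher, 9.17% lower). The split of 1131 higher and 1088 lower genes became 552 and 5544 on library totals and 1423 and 859 in DESeq2. The lactation sums hold 43 and 48 cells.

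Tgfb2 fell on either scale. It was at 114 and 121 CPM in gestation and 26.0 and 24.2 CPM in lactation (15 and 18 UMIs), with no overlap (−1.33 ± 0.22, adjusted p = 0.00124). On library totals alone, an alternative chosen after seeing the milk share, the change was −2.23 (adjusted p = 1.08e-06), and without gestation mouse 2 it was −1.15 (adjusted p = 0.0585, the highest of 11 alternatives).

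The 3 members that were higher lost their calls on library totals alone and kept them with milk protein genes left out. With milk protein genes out of the total, the means in C9 of lactation and C8 of gestation were 87.9 and 54.0 CPM for Tgfb3. They were 39.9 and 14.5 CPM for Inhbb and 19.9 and 6.43 CPM for Tgfb1. Tgfb1 was at 6.16 and 5.69 CPM in gestation and 10.4 and 12.1 CPM in lactation from 6 and 9 UMIs (1.83 ± 0.46, adjusted p = 0.0138), and on library totals alone the value was 0.93 (adjusted p = 0.0852) and without lactation mouse 2 its adjusted p was 0.118. Tgfb3 was at 49.3 and 50.4 CPM in gestation and 32.9 and 67.1 CPM in lactation, so the stages overlapped in CPM (0.96 ± 0.26, adjusted p = 0.0224). Its adjusted p was 0.075 in DESeq2, 0.877 on library totals (0.05), 0.143 without gestation mouse 2 and 0.725 without lactation mouse 2 (0.22), over 0.000688 to 0.877.

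Inhbb was at 9.60 and 17.3 CPM in gestation and 26.0 and 18.8 CPM in lactation (1.63 ± 0.45, adjusted p = 0.0245), with 0.156 on library totals (0.72), 0.124 without lactation mouse 1 and 0.071 without lactation mouse 2, and a value of 2.23 without gestation mouse 2 (adjusted p = 0.0107). Tgfbr1 passed only on library totals (−1.13, adjusted p = 0.0165). The stress list was higher for 6 of 8 genes and basal markers for 6 of 6 (2566 and 1046 CPM against 132 and 127 CPM), and their part in these values was not tested. Thbs1 was lower (120 ± 11 against 510 ± 108 CPM, −1.18 ± 0.20, adjusted p = 0.0015, but 0.101 without gestation mouse 2), and on library totals alone its value was −2.09.

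**Figure D4:**
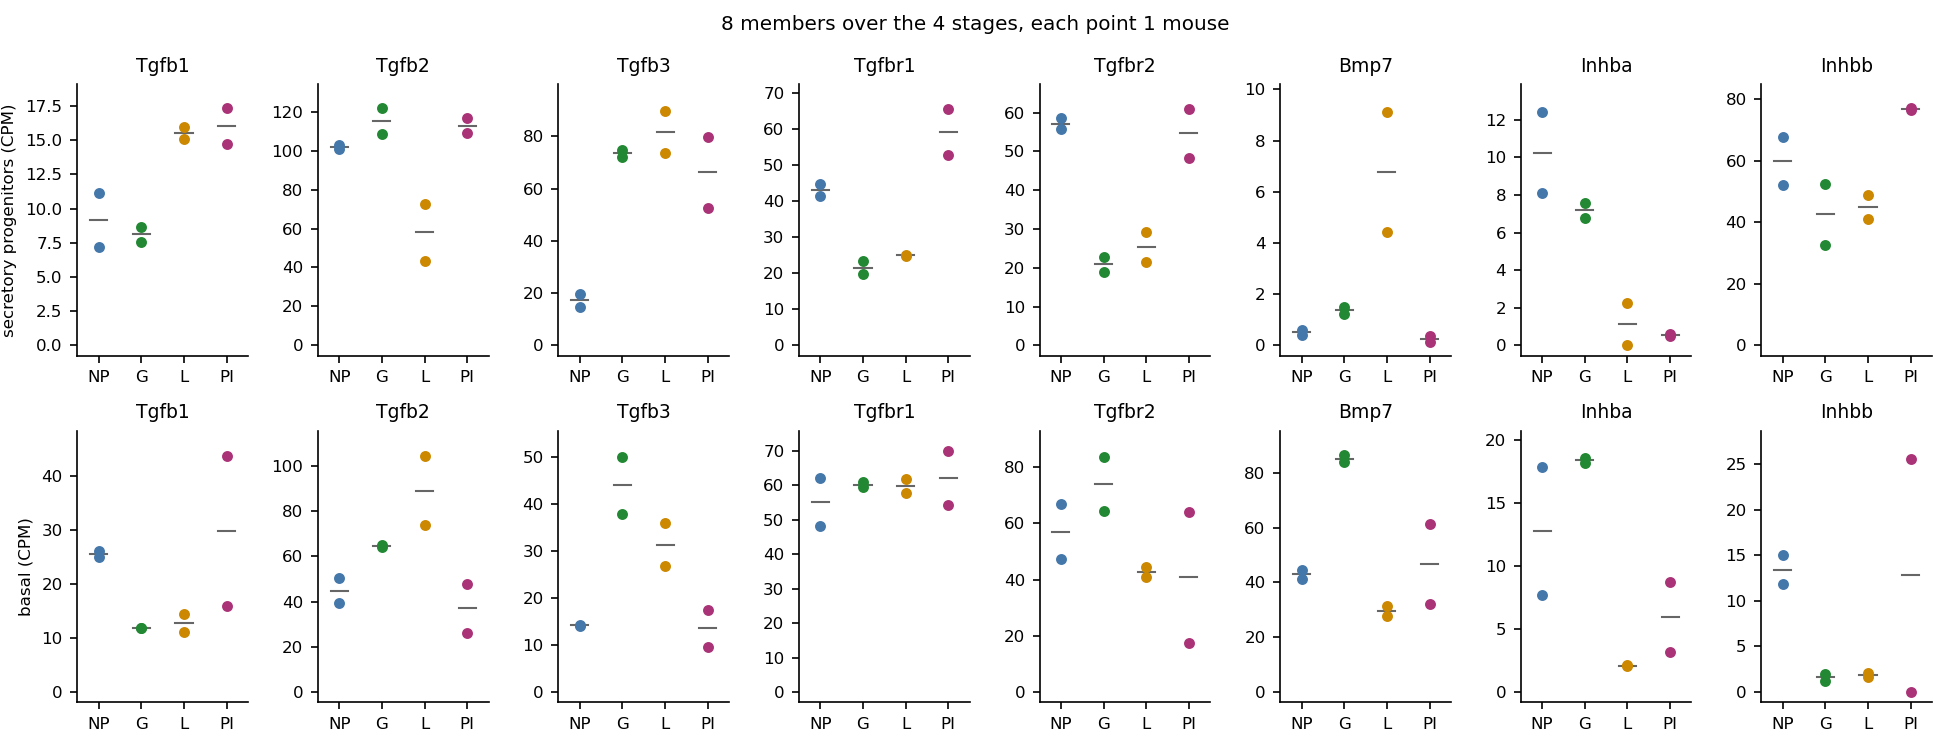
Level of members (CPM, vertical axis) at the 4 stages NP, G, L and PI (horizontal axis) in luminal (secretory) progenitors, upper panels, and basal cells, lower panels, with a point per mouse and a bar at the mean of each stage. Tgfb3 in progenitors is low in NP (14.7 and 19.8 CPM) and higher at the other 3 stages, and Bmp7 in basal cells peaks at gestation (84.0 and 86.4 CPM).

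In basal cells, gestation (C13) differed from NP (C12) in 5 of 8 members tested, 3 higher and 2 lower, where 39.9% of genes differed (21.0% higher, 18.9% lower). Bmp7 was at 44.4 and 41.4 CPM in NP and at 84.0 and 86.4 CPM in gestation (1.06 ± 0.16, adjusted p = 7.85e-05). Tgfb3 was at 14.3 and 14.1 CPM in NP and at 50.1 and 37.9 CPM in gestation (1.70 ± 0.23, adjusted p = 2.76e-05). Both gestation values lay above both NP values for each gene, and both genes kept their calls in all 12 alternatives.

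Tgfb1 and Inhbb fell. Tgfb1 was at 26.1 and 25.04 CPM in NP and at 11.8 and 11.9 CPM in gestation (−1.03 ± 0.24, adjusted p = 0.00247). Inhbb was at 15.04 and 11.8 CPM in NP and at 1.26 and 2.02 CPM in gestation (−2.95 ± 0.48, adjusted p = 0.000156), and both calls held in all 12 alternatives. All 4 luminal and 5 of 5 hormone-sensing markers were also lower in the gestation sums (luminal markers summed 5815 and 3909 CPM in NP, 1253 and 1398 CPM in gestation), Inhbb being a gene of luminal clusters, and the part of luminal transcripts in its fall was not tested.

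Tgfb2 rose from 50.3 and 39.2 CPM to 65.1 and 64.0 CPM (0.58 ± 0.19, adjusted p = 0.0238), a call that ended when any of the 4 mice was left out (adjusted p 0.0505 to 0.158). Tgfbr2 (66.8 and 47.3 CPM in NP, 64.4 and 83.7 CPM in gestation) and Inhba (17.9 and 7.74 CPM in NP, 18.6 and 18.2 CPM in gestation) did not pass. Tgfbr2 (0.43, adjusted p = 0.0936) passed with no filter on low counts (adjusted p = 0.0484) and in a fit of the 2 stages alone (0.0429). Its values ran from 0.24 to 0.70 over 12 alternatives. Without NP mouse 1 Inhba did (1.30, adjusted p = 0.0337), the lowest of 12 alternatives that reached 0.768.

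Other pathway genes changed in basal cells as well, where 21.0% of all genes were higher and 18.9% lower. Of 9 other receptors 5 were higher and 0 lower (median 0.40 against 0.01 over all genes), led by Tgfbr3 (267 ± 22 against 65.4 ± 0.80 CPM, 2.11 ± 0.15), and of 8 antagonists 5 were higher and 2 lower (median 0.77), among the former Dcn (decorin, 610 ± 125 against 160 ± 31 CPM, 2.01 ± 0.20). Thbs1 was higher (3584 ± 31 against 889 ± 85 CPM, 2.09 ± 0.15). Lower were Ltbp2 (66.3 ± 15 against 186 ± 22 CPM, −1.41 ± 0.18), Id4 (261 ± 6.6 against 445 ± 3.6 CPM, −0.69 ± 0.14) and Itgb8 (18.97 ± 2.7 against 36.9 ± 3.3 CPM, −0.90 ± 0.19). Fibroblast markers, of which Dcn is a member, were higher for 4 of 7, stress genes for 6 of 8 and milk protein markers for 6 of 8.

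From gestation to lactation Inhba and Bmp7 fell in the basal cells (C14 against C13), Inhba to a low level and Bmp7 in part. Of 8 members 4 differed (1 higher, 3 lower), where 50.1% of genes did (25.2% higher, 24.9% lower). Inhba was at 18.6 and 18.2 CPM in gestation and 2.03 and 2.17 CPM in lactation (−2.99 ± 0.32, adjusted p = 9e-07). Bmp7 was at 84.0 and 86.4 CPM in gestation and 27.9 and 31.5 CPM in lactation (−1.39 ± 0.15, adjusted p = 9.83e-07). Neither overlapped, and both kept their calls in all 12 alternatives.

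The follistatin gene Fst, whose product binds activins, fell together with Inhba, from 1752 ± 220 to 248 ± 16 CPM (−2.69 ± 0.16, adjusted p = 1.1e-09). Tgfb2 rose from 65.1 and 64.0 CPM to 73.8 and 104 CPM (0.59 ± 0.17, adjusted p = 0.00882, but 0.136 and a value of 0.33 without lactation mouse 2). Tgfbr2 fell from 64.4 and 83.7 CPM to 40.9 and 44.3 CPM (−0.67 ± 0.18, adjusted p = 0.00605, but 0.124 and −0.45 without gestation mouse 2). Tgfb3 was at 50.1 and 37.9 CPM in gestation and 35.9 and 26.7 CPM in lactation and did not pass (−0.36, adjusted p = 0.113). It did without lactation mouse 2 (−0.57, adjusted p = 0.0276) and on library totals (−0.49, adjusted p = 0.0343). Tgfbr1 did not pass in either comparison, at 62.1 and 48.3 CPM in NP, 60.9 and 59.5 CPM in gestation and 61.9 and 57.9 CPM in lactation.

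Among other pathway genes in lactating basal cells, Id2 was higher (499 ± 18 against 138 ± 26 CPM, 1.99 ± 0.18), as were Tagln (10114 ± 1242 against 3635 ± 519 CPM, 1.60 ± 0.17) and the stress-responsive ligand Gdf15 (25.4 ± 2.6 against 5.82 ± 3.2 CPM, 2.27 ± 0.27, and 2.93 without gestation mouse 1). The Smad co-repressor Skil (55.5 ± 3.1 against 164 ± 12 CPM, −1.44 ± 0.13) and Ltbp2 (15.3 ± 3.1 against 66.3 ± 15 CPM, −1.98 ± 0.18) were lower. Dissociation-stress genes were higher for 8 of 8 (summed 24995 and 19779 CPM against 6057 and 3864 CPM), and their part in these results was not tested.

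**Figure D5:**
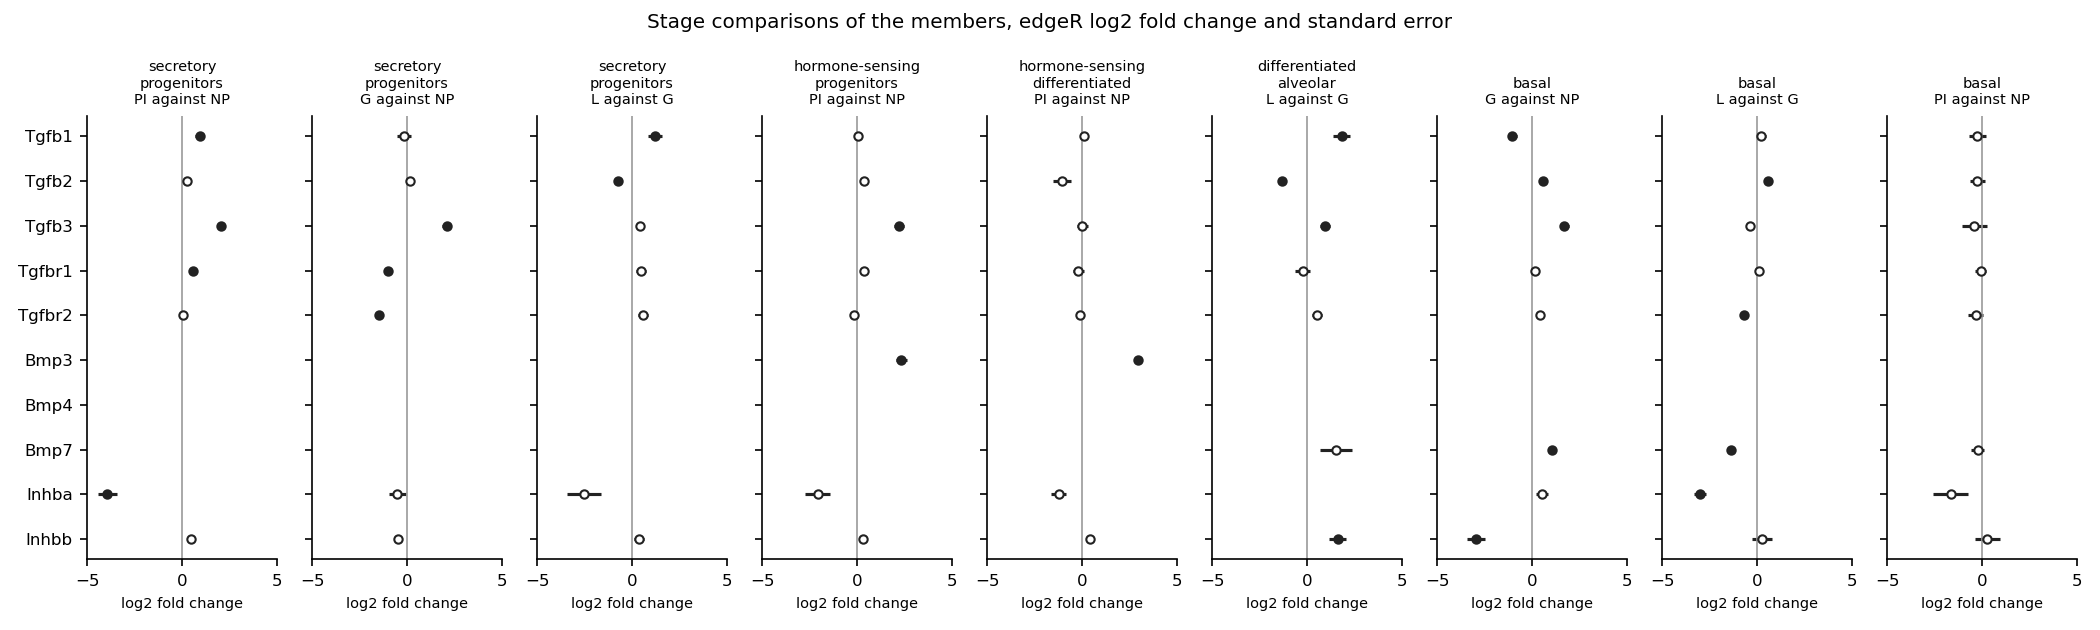
Log2 fold change of each member (horizontal axis, bars are ± 1 SE) in the comparisons named on the panels, with filled points for an adjusted p under 0.05 in edgeR and open points otherwise; members that were not tested, and Inhba in alveolar cells, whose SE is above 3, are left out. Bmp3 lies at 2.96 and 2.34 in the hormone-sensing cells and Inhba at −3.94 in luminal progenitors of PI.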

How the data were processed

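Single-cell transcript counts of 8 mouse libraries, 2 mice at each of 4 stages, were analysed, and groups came from the labels. The authors aligned reads to mm10 and counted UMIs per gene and cell barcode with Cell Ranger (the labels name STAR, version not given in the sources used here), so the deposited matrices hold raw counts. The deposited cell table gave cluster numbers, quality flags, UMI counts and the mitochondrial fraction of each cell, which the authors had computed and used in the flags, and cluster names follow the study. Cells were filtered by the authors' flag, doublets only by leaving out C20, and no doublet caller was run.

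UMI counts were summed per library and cluster or lineage (at least 20 cells) and expressed as CPM. Sums were compared with edgeR 4.0.16 (R 4.3.3) by its quasi-likelihood test after filterByExpr and TMM scaling, with Benjamini-Hochberg adjustment over all genes tested and a threshold of 0.05. NP, G, L and PI sums shared 1 fit for luminal progenitors and 1 for basal cells. The luminal progenitor sums join C6, C7, C10 and C11, so in effect they hold alveolar progenitors at G and L. Luminal and basal sums were compared with the mouse as a term. Differences between changes came from a fit with the mouse, the cell type and its interaction with stage. The self-test on simulated counts ran first. Shares of cells carry exact Clopper-Pearson 95% intervals, which cover counting error only, and thinning drew 1000 UMIs per cell. Positions came from the GRCm38 annotation and promoter windows from RefSeq. Alternatives are listed in the closing section, DESeq2 1.42.0 among them, and library totals alone were added after seeing the data.

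The members, gene lists and markers were chosen with earlier results of these data known. The genes named beside the 10 members are up to 3 higher and up to 3 lower per comparison from the pathway lists, by adjusted p, among those past the threshold. The list gene Ltbp4 was left out because 2 gene identifiers share the symbol. Replicate numbers of the labels did not pair the mice: the correlation of same-numbered deviations was −0.052 to 0.074. Dixon's outlier test was not applicable to groups of 2. Mice were separate animals at each stage. The p-values of the stage comparisons rest on the spread between mice, estimated in large part from other genes. Those of the fits with the mouse as a term rest on how differences within a mouse vary from mouse to mouse.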

Additional observations from a re-analysis of the deposited data

Results flagged for a closer look

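The changes from NP to PI differed between cell types for 5 members when tested as an interaction of cell type and stage, with the mouse as a term (edgeR, adjusted over 12082 genes). Luminal progenitors minus hormone-sensing differentiated cells gave a log2 difference of 2.15 for Tgfb3 (adjusted p = 2.54e-06), which held under all 9 alternatives.

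For Inhba the same difference was −2.58 (adjusted p = 0.0245), with an adjusted p of 0.344 without PI mouse 2 and 0.000498 to 0.344 over the alternatives. For Tgfb2 it was 1.33 (adjusted p = 0.0199), with 0.265 without NP mouse 1 and 0.232 without PI mouse 2, and 0.0133 to 0.265 over the alternatives. The Tgfb2 counts in hormone-sensing differentiated cells are few, at 2.43 and 1.44 CPM in NP and 1.10 and 0.87 CPM in PI.

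For Tgfb1 the difference was 0.82 (adjusted p = 0.0234), and it passed in 4 of 9 alternatives: the adjusted p was 0.0709 in DESeq2, 0.124 without the library term, 0.0814 on library totals alone, 0.392 without NP mouse 1 and 0.0746 without PI mouse 2. For Tgfbr1 it was 0.79 (adjusted p = 0.028), and it too passed in 4 of 9: the adjusted p was 0.184 in DESeq2, 0.16 without the library term, 0.0876 on library totals alone, 0.207 without NP mouse 2 and 0.5 without PI mouse 2.

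Luminal progenitors minus basal cells gave 2.72 for Tgfb3 (adjusted p = 0.00139). Without PI mouse 2 the value was 1.87 (adjusted p = 0.208), and the basal sum then rests on the 28 cells of PI mouse 1.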

How the results depend on the processing

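No member value changed direction past the threshold: of 1244 member values under alternatives, 1096 kept direction and side of the threshold, 64 lost the call and 22 gained it, and 62, from 30 pairs of member and comparison, changed sign with neither value past the threshold; of 726 values of named pathway genes, 659 kept both, 67 lost the call and 0 reversed. Counts of genes past the threshold moved most with a test for log2 changes above 1 at 0.01 (glmTreat): 223, 614 and 364 for luminal progenitors (PI against NP, G against NP, L against G), 127 and 121 for hormone-sensing progenitors and differentiated cells, 342 for alveolar cells, 479, 901 and 18 for basal cells (G against NP, L against G, PI against NP) and 1915 for luminal against basal, from 2612, 4334, 2797, 1778, 1714, 2219, 4739, 5949, 530 and 6543. Under that test Tgfb3 and Inhba (luminal progenitors, PI against NP), Tgfb3 (G against NP), Tgfb3 and Bmp3 (hormone-sensing progenitors), Bmp3 (differentiated), Inhbb (basal, G against NP), Inhba (basal, L against G) and Bmp3, Bmp7 and Inhbb (luminal against basal) kept their calls.

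DESeq2 gave 1412 genes for luminal progenitors and 823 for hormone-sensing progenitors (PI against NP). Leaving the low-count filter out gave 877 for basal cells (PI against NP). Without the library term (no replicate block) the differences between changes gave 1106, 509 and 414 genes, from 2122, 965 and 780. Library totals alone gave 6096 genes in alveolar cells. Where this scaling or DESeq2 moved the split of higher and lower calls by over 10 percentage points, both splits stand beside the result; library totals also turned it to 2235 and 2630 from 2498 and 2241 (basal, G against NP) and to 2439 and 3530 from 2994 and 2955 (basal, L against G), and leaving out the low-count filter turned it to 2185 and 2475 from 2222 and 2112, 1529 and 1634 from 1568 and 1229, and 1274 and 1601 from 1131 and 1088 (luminal progenitors, G against NP and L against G, and alveolar cells). TMM moved the median by 0.285 in luminal progenitors (L against G), 0.899 in alveolar cells and 0.113 in basal cells (L against G). The cause of these moves was not tested beyond the scaling itself.

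With a replicate block, counts were 2599, 4289, 2743, 1642, 2058, 2088, 4680, 5904 and 570 in the order above, and Inhba passed in hormone-sensing progenitors (−2.41, adjusted p = 0.0255) and differentiated cells (−1.37, adjusted p = 0.00959); no other member call changed. Leaving out each mouse gave 1319 to 1786, 2921 to 3523 and 1796 to 2144 genes for luminal progenitors, 476 to 1960 and 928 to 2458 for hormone-sensing progenitors and differentiated cells, 609 to 1890 for alveolar cells, 2558 to 3869, 4079 to 5389 and 106 to 375 for basal cells, 5398 to 6388 for luminal against basal, and 1083 to 2260, 416 to 699 and 372 to 644 for the differences between changes; the lone mouse left at a stage is then assumed to vary like the others. With milk genes out of the total, Tgfb2's highest level was 127 CPM in place of 117. Requiring 50 cells leaves C3 of PI as the highest cluster of Bmp3 (76.3 CPM) and Inhbb (83.9 CPM). Bmp4 UMIs were few throughout the epithelium, also in deep sums, with 19 in the C8 sums of 26454518 and 21959199 UMIs. Inhba UMIs were few in PI, with 8 in the C7 sums of 7393607 and 7967835 UMIs. Depth limits the basal PI sums.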

Other observations

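Genes whose levels followed a member most closely over the 51 sums of cluster and library are given as a description, by Pearson's r of log2 levels over 11272 genes; the sums share libraries, depth and the clusters' composition, so no p is given. Bmp3 was most like Slc44a4 (r = 0.910), Apof (0.904) and Tph1 (0.897), and Bmp7 most like Ism1 (0.862), with Fst, the gene of the activin-binding follistatin, among its closest (0.831). Inhbb was most like Als2cl (0.867), Bmp4 like Sema6b (0.862) and Tgfb2 like Casp12 (0.839). The remaining members had weaker closest partners: Tgfb1 and Crlf2 (0.816), Tgfbr2 and Sned1 (0.799), Tgfb3 and Prkaa2 (0.733), Tgfbr1 and Tlr2 (0.709), and Inhba and Rhot1 (0.65).

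In basal cells of PI, where 0 members passed against NP, other pathway genes did. Thbs1 (2012 ± 456 against 889 ± 85 CPM, log2 fold change 0.99), the inhibitory Smad7 (207 ± 33 against 76.4 ± 10 CPM, 1.36) and the BMP antagonist Nbl1 (281 ± 14 against 148 ± 14 CPM, 0.80) were higher, and Tagln (1145 ± 298 against 2844 ± 393 CPM, −1.52), Id4 (230 ± 45 against 445 ± 3.6 CPM, −1.17) and Ltbp2 (76.6 ± 9.4 against 186 ± 22 CPM, −1.37) lower. Without PI mouse 2, which leaves 28 PI cells, the adjusted p was 0.431 for Smad7, 0.349 for Nbl1, 0.108 for Id4 and 0.227 for Ltbp2; without NP mouse 1 it was 0.0534 for Smad7 and 0.129 for Nbl1, and without PI mouse 1 0.0827 for Ltbp2.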
